A study of Rattus norvegicus with 47 samples.

Results

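The 7 genes described here encode subunits of NADPH oxidases: Cyba, Cybb, Ncf1, Ncf4 and Rac2 of the phagocyte enzyme, Noxo1 of an epithelial enzyme, and Nox4. They were taken by gene name from the 30045 genes of each of 4 tables, and each of the 7 stood once in every table. The RNA came from lungs and whole blood of rats of the inbred strain Fischer 344, all healthy males of 250 to 300 g, whose age is not given in the sources used here. Air groups breathed filtered air, and silica groups breathed Min-U-Sil 5, a dust of fine quartz particles, at 15 mg/m3 for 6 h on each of 5 days, both by whole-body inhalation. The rats were killed 1 day or 6 months later. Tissue, time and treatment thus gave 8 groups with 6 libraries each, except air lung at 6 months with 5, which made 47 libraries in all.

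NADPH oxidases pass electrons from NADPH across a membrane to oxygen and so make superoxide, from which hydrogen peroxide forms. In the phagocyte enzyme, the catalytic chain encoded by Cybb and its partner chain encoded by Cyba sit in the membrane. Cytosolic proteins, among them those of Ncf1 (the organizer) and Ncf4, with the GTPase Rac2, join them when a neutrophil or macrophage is stimulated. Noxo1 encodes the organizer that takes the place of the Ncf1 protein in the epithelial enzyme built on Nox1. The Nox4 protein also pairs with the Cyba protein but needs no cytosolic organizer, and is best known from fibroblasts, smooth muscle and kidney. Alveolar macrophages, which engulf inhaled particles, and recruited neutrophils are the classical sources of oxidase activity in a dust-exposed lung.

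Promoter sequences of Noxo1, Ncf1 and Cybb are shown first, because Noxo1 had the largest silica effect among the members, the effect on Ncf1 turned from a fall to a rise between the times in lung, and the Cybb transcript parted from that of its partner Cyba. Each is the 250 bases before the RefSeq start of the gene in the rat assembly GRCr8, written 5′ to 3′ on the strand of the gene, with motif matches in capitals. The deposited counts rest on another build, so a start used in counting may differ. RefSeq sequences were at hand for 5 of the 7 members, which also include Cyba and Nox4. Ncf4 and Rac2 had no entry in the table used. Noxo1 lies on the plus strand at chr10:14227955-14228204, Ncf1 on the plus strand at chr12:28121635-28121884, and Cybb on the minus strand at chrX:16065066-16065315.
Noxo1: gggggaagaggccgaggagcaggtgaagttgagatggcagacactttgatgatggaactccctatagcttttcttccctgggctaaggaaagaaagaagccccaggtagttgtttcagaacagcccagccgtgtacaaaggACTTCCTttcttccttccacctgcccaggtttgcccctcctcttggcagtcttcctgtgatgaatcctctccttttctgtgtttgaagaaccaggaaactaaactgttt
Ncf1: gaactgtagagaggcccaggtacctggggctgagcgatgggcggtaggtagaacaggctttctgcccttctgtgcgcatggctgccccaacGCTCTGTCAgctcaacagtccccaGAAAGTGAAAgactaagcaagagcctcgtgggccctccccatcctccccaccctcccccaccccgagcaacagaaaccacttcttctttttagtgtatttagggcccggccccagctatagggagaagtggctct
Cybb: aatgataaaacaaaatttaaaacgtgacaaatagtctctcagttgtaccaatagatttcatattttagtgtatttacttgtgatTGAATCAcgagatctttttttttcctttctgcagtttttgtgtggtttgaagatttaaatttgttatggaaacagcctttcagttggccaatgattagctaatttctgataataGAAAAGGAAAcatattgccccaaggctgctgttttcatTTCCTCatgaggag

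The capitals mark matches on either strand to 6 motifs that were searched in all 5 promoters. In Noxo1 the capitals are the ETS family motif AGGAAGT, read on the opposite strand from 109 to 103 bases before the start, which 7.08% of all 33469 promoters of this length hold. In Ncf1 they are the antioxidant response element core TGACNNNGC, on the opposite strand from 159 to 151 bases before the start (10.1% of all promoters), and the interferon regulatory factor motif, 2 copies of GAAA with 2 open bases between them, from 135 to 126 bases before it (3.41%). Cybb held the interferon regulatory factor motif from 52 to 43 bases before the start. It also held the AP-1 motif as searched here, TGANTCA with any base at its centre, from 166 to 160 bases before the start. In Cybb the centre base is A. The motif reads the same on both strands apart from its open base, and 6.34% of promoters hold it. The last capitals of Cybb are the ETS and PU.1 core GAGGAA, on the opposite strand from 14 to 9 bases before the start. GAGGAA was in 23.3% of promoters, and it can overlap AGGAAGT. No match to the NF-kB motif, in 6.33% of promoters, was found in the 5, and Cyba and Nox4 held none of the 6 motifs in this window. The share of G and C was 49.6% in Noxo1, 58.4% in Ncf1 and 32.0% in Cybb, beside a median of 51.2% and a 5th percentile of 34.0% over all promoters. A match is a description of these letters and not a measured binding site.

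Levels are given as normalised CPM, the rounded estimated counts over the library total (in the usual CPM units) after TMM scaling within each table, so levels of different tables were scaled separately. They are not divided by gene length and are compared only between libraries for the same gene. Total counts were 9.64e6 to 25.9e6 per library. Lung markers were far lower in the blood libraries than in the lung libraries: summed CPM of 7 alveolar type 2 genes was at least 19496 in every lung library and at most 275 in every blood library, most of it from Napsa, and the surfactant gene Sftpc was at 0 in all blood libraries at 1 day. Estimates of Ncf1 were not whole numbers in all 47 libraries, so some of its reads were shared with other gene models and its level is less certain than that of Noxo1. In bulk tissue, more cells of a type and more RNA per cell cannot be told apart, which holds for every level below.

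In lung 1 day after exposure, the transcripts of the 2 organizers parted: Noxo1 rose 3.85-fold and Ncf1 fell to 0.744 of its air level. Ncf4 rose by 0.50 on the log2 scale. The membrane chains Cyba and Cybb, the GTPase Rac2, and Nox4 did not pass the test. In all 2 of the 7 members rose and 1 fell, where edgeR called 14.1% of the 15331 genes tested (8.39% higher and 5.72% lower). The median log2 fold change, silica over air, was 0.12 over the 7 members and -0.0024 over all genes tested.

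Noxo1 was at 15.5, 19.7 and 27.2 normalised CPM (lowest, median and highest) in the 6 air lungs and at 60.2, 79.9 and 91.2 in the 6 silica lungs. Every silica library stood above every air library. The means were 20.4 ± 3.88 and 78.6 ± 11.2 CPM (SD, n = 6 each), and the log2 fold change was 1.94 ± 0.12 (SE), with an edgeR adjusted p of 3.85e-07. By p it ranked 6 of all 15331 genes. Leaving out any 1 library kept the log2 fold change between 1.88 and 2.04.

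Ncf1 was at 62.9, 74.8 and 91.6 CPM in air lungs and at 47.8, 56.6 and 59.9 in silica lungs. The groups did not overlap, with all 6 silica libraries below all 6 air libraries. Means were 75.1 ± 11.3 and 55.9 ± 4.31 CPM (SD), and Ncf1 fell by 0.43 ± 0.088 on the log2 scale (SE; edgeR adjusted p = 0.00455). Ncf4, whose product binds a lipid of the phagosome membrane, moved the other way. It was at 23.9, 26.7 and 29.1 CPM in air and at 33.7, 36.3 and 42.4 CPM in silica lungs. These groups also did not overlap, and the log2 fold change was 0.50 ± 0.061 (edgeR adjusted p = 8.04e-05). Groups that did not overlap were found for 2 members higher and 1 lower, and for 5.04% and 2.75% of all genes tested.

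The membrane pair was less settled at 1 day. Cyba was at 65.4, 68.2 and 93.6 CPM in air lungs and at 75.0, 84.4 and 92.3 in silica lungs. All silica libraries were above 5 of the 6 air libraries, and air library 38 at 93.6 was above them all. The log2 fold change was 0.23 ± 0.079, with an edgeR adjusted p of 0.0720, and it was 0.31 with an adjusted p of 0.00056 without air library 38. Cybb was at 62.0, 106 and 128 CPM in air and at 55.7, 75.5 and 91.1 in silica lungs. Its groups overlapped through air library 39, the lowest of the air group. The log2 fold change was -0.44 ± 0.15 (edgeR adjusted p = 0.0666), and without air library 39 it was -0.55 with an adjusted p of 0.00615. Neither chain is counted as changed, and both calls turned on 1 air library.

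Rac2, the GTPase of blood-derived cells that switches on the phagocyte enzyme, was at 110, 124 and 141 CPM in air and at 127, 137 and 141 in silica lungs at 1 day. The groups overlapped, and the log2 fold change was 0.12 ± 0.052 (edgeR adjusted p = 0.147). Without air library 38 its adjusted p was 0.0407. Nox4 was at 42.8 ± 2.96 CPM in air and 42.5 ± 1.30 in silica lungs, and its log2 fold change of -0.013 ± 0.046 (adjusted p = 0.899) was smaller than its SE.

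**Figure D1:**
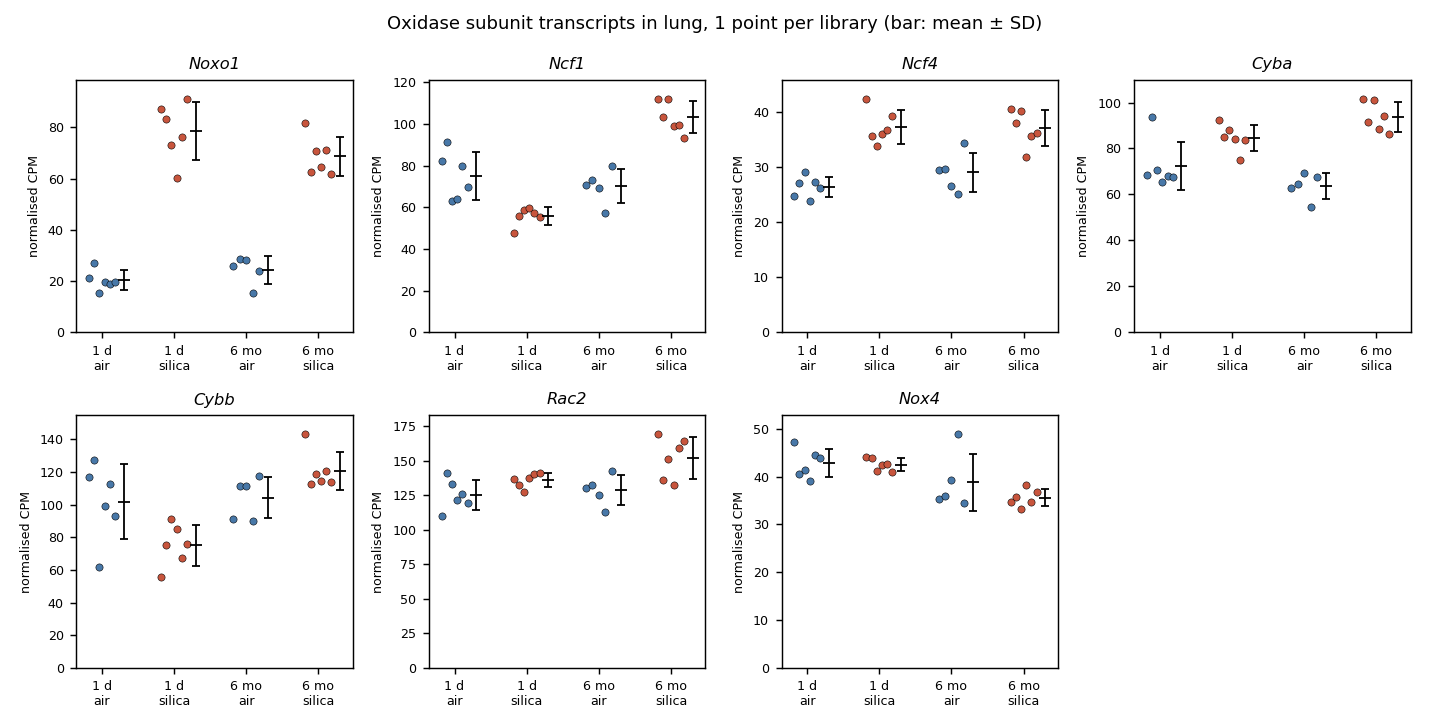
Normalised CPM (y axis, linear from 0) of the 7 members in the 4 lung groups, with 1 point per library and the mean ± SD beside each group. Noxo1 stood apart in silica lungs at both times, and Ncf1 was below the air libraries at 1 day and above them at 6 months.

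In lung 6 months after exposure 5 of the 7 members rose and 0 fell: Noxo1, Cyba, Ncf1, Ncf4 and Rac2. edgeR called 16.2% of the 15309 genes tested there, 9.84% higher and 6.38% lower. The median log2 fold change was 0.35 over the 7 members and -0.0080 over all genes. Groups did not overlap for 3 members, all higher in silica (Noxo1, Cyba and Ncf1), and for 6.96% of all genes in that direction and 3.5% in the other.

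Noxo1 was at 26.0, 28.5, 28.1, 15.4 and 24.1 CPM in the 5 air lungs, and at 61.7, 67.7 and 81.8 CPM (lowest, median and highest) in the 6 silica lungs. The silica libraries were again all above the air libraries. The log2 fold change was 1.49 ± 0.13, or 2.82-fold, with an edgeR adjusted p of 3.63e-05, and Noxo1 ranked 19 of 15309 genes by p. The difference between the effects at 6 months and 1 day was -0.44 ± 0.19 on the log2 scale and did not pass the test (edgeR adjusted p = 0.295).

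Ncf1 was at 70.7, 73.1, 69.5, 57.4 and 79.9 CPM in air lungs and at 93.2, 101 and 112 CPM in silica lungs. All 6 silica libraries were above all 5 air libraries, the reverse of their order at 1 day. The log2 fold change was 0.56 ± 0.075 (edgeR adjusted p = 0.000471). The silica effect on Ncf1 at 6 months exceeded that at 1 day by 0.99 ± 0.12 on the log2 scale (edgeR interaction test, adjusted p = 0.000168). edgeR called 1.12% of 15786 genes higher and 0.253% lower in that test, and Ncf1 was the only one of the 7 members past it. Without air library 39 of 1 day, Cybb passed as well, at 0.76 with an adjusted p of 0.00955, and leaving out any other library left Ncf1 the only one.

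Cyba was at 62.98, 64.6, 69.2, 54.7 and 67.4 CPM in air and at 86.1, 92.7 and 102 CPM in silica lungs at 6 months. The groups did not overlap, and Cyba rose by 0.56 ± 0.063 on the log2 scale (edgeR adjusted p = 0.000167). Its catalytic partner Cybb was at 91.2, 111, 112, 90.2 and 118 CPM in air and at 113, 117 and 143 CPM in silica lungs. Only 3 of 6 silica libraries were above all air libraries, and its log2 fold change of 0.21 ± 0.082 did not pass (edgeR adjusted p = 0.101). The time difference of the effect was 0.33 ± 0.11 for Cyba (adjusted p = 0.132) and 0.65 ± 0.19 for Cybb (adjusted p = 0.0884), so neither was past the threshold.

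Ncf4 was at 29.5, 29.7, 26.5, 25.1 and 34.4 CPM in air and at 31.7, 37.1 and 40.5 CPM in silica lungs. It rose 1.28-fold (log2 0.35 ± 0.082, edgeR adjusted p = 0.0120), with 5 of 6 silica libraries above all air libraries. Its organizer partner Ncf1 thus rose with it at 6 months, where the 2 had moved apart at 1 day.

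Rac2 was at 130, 132, 125, 113 and 142 CPM in air and at 132, 155 and 169 CPM in silica lungs at 6 months. It rose 1.18-fold (log2 0.24 ± 0.073, edgeR adjusted p = 0.0391) with 4 of 6 silica libraries above all air libraries. That call was lost without any 1 of 8 of the 11 libraries (air 49, 51, 52 and 53, silica 58, 60, 62 and 64), with adjusted p up to 0.0964. Nox4 was at 38.8 ± 5.94 CPM in air and 35.6 ± 1.76 in silica lungs (log2 -0.13 ± 0.082, edgeR adjusted p = 0.324). Air library 53 was the highest for Nox4, at 48.9 CPM, and the lowest of its group for Noxo1, Ncf1, Cyba, Cybb, Ncf4 and Rac2.

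Of the white cell marker lists, only the neutrophil sum was apart between air and silica lungs at both times, and it was higher in silica lungs. The list summed to 145 to 289 CPM in air and 336 to 715 in silica lungs at 1 day, where 7 of its 11 tested genes rose and 1 fell. At 6 months the neutrophil genes summed to 252 to 379 and 469 to 663 CPM, and 4 of 11 rose. Of the sum, 48.5% at 1 day and 52.1% at 6 months came from S100a9. The median log2 fold change of the list was 0.98 at 1 day and 0.165 at 6 months. Its granule genes Mpo, Elane and Ltf were at or near 0 in lung at both times, with Ltf at 0 in all libraries at 6 months. The macrophage list overlapped at 1 day (523 to 785 and 644 to 858 CPM, 7 of 12 tested genes higher and 2 lower) and did not at 6 months (575 to 710 and 834 to 1102 CPM, 10 higher and 0 lower). The monocyte list overlapped at 1 day (25069 to 30576 and 25638 to 34140 CPM, 3 of 9 genes higher and 2 lower). Its sum was higher at 6 months (23989 to 31058 and 35027 to 47384 CPM, 2 of 9 higher and 1 lower), with 94.6% of that sum from Lyz2. The median log2 fold change of the monocyte list at 6 months was -0.016. Lists of T cells, B cells, NK cells and eosinophils overlapped at both times. The macrophage list's member Marco stayed below the level tested at both times. The 2 macrophage genes lower at 1 day rose at 6 months, as Ncf1 did. Fabp4 had log2 fold changes of -0.82 and 1.27, and Siglec1 of -0.52 and 0.84. The 7 higher at 1 day moved against Ncf1 at that time: Cd68, Msr1, Itgax, Atp6v0d2, C1qa, C1qb and C1qc. Fabp4 and Siglec1 were picked after their values were seen. Whether cell numbers account for the changes of the subunits was not tested.

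Of the other cell lists, 3 were apart at 1 day, all lower in silica lungs. These were alveolar type 1 (5422 to 6309 and 4846 to 5085 CPM, 5 of 6 genes lower), erythroid (3766 to 5022 and 2832 to 3751 CPM, 5 of 6 lower) and ciliated markers (775 to 848 and 562 to 669 CPM, 1 of 5 lower). Of the ciliated sum 87.0% was from 1 gene, Tppp3, and the median log2 fold change of that list was -0.034. At 6 months 3 were apart. Alveolar type 1 (5372 to 5938 and 4662 to 5289 CPM, 2 of 6 lower) and endothelial markers (3214 to 3615 and 2587 to 3004 CPM, 7 of 7 lower) were lower, and alveolar type 2 markers were higher (19496 to 24583 and 27957 to 34760 CPM, 6 of 7 higher). The airway secretory sum overlapped at both times, and 97.7% of it at 1 day was Scgb1a1, the club cell gene. Its genes did not move together: at 1 day Scgb1a1 fell by 0.37 ± 0.092 on the log2 scale (edgeR adjusted p = 0.0140) and Bpifb1 rose from a mean of 7.40 to 20.5 CPM (adjusted p = 0.0106), and at 6 months Bpifb1 rose from 1.72 to 16.2 CPM in air to 28.8 to 95.3 in silica lungs (adjusted p = 0.00149). Of the list 1 of 6 tested genes was higher and 1 lower at 1 day, and 1 was higher and 0 lower at 6 months. The part of these lists in the results was not tested.

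In blood 1 day after exposure none of the 5 members that passed the filter on low counts was called, and 0 had groups that did not overlap, while edgeR called 1.19% of 12253 genes higher and 0.18% lower, and groups did not overlap for 1.93% of them. At an unadjusted p under 0.05 there were 3 (Cyba, Ncf1 and Ncf4), beside 12.9% of all genes. DESeq2 called 1 of the 5, Ncf4, and limma-voom called 0. Noxo1 had 0 to 2 counts and Nox4 0 to 1 counts in these libraries, at or under the floor of 3 counts, so no fold is given for them. Markers of fibroblasts, known for Nox4, summed to at most 0.437 CPM in blood at this time.

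Ncf4 came closest to a call in blood at 1 day. It was at 84.3, 91.2 and 97.0 CPM in air and at 94.2, 113 and 114 in silica blood, with 5 of 6 silica libraries above all air libraries. The log2 fold change was 0.25 ± 0.061 with an edgeR adjusted p of 0.0583, and without silica library 43 the adjusted p was 0.0198.

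Ncf1 was at 107, 128 and 139 CPM in air and at 132, 144 and 148 in silica blood at 1 day, with 4 of 6 silica libraries above all air libraries. The log2 fold change was 0.17 ± 0.059 (edgeR adjusted p = 0.236). Cyba was at 64.3 ± 4.59 and 72.4 ± 7.09 CPM (log2 0.17 ± 0.067, adjusted p = 0.287). Cybb was at 72.2 ± 14.9 in air and 59.8 ± 10.2 CPM in silica blood, a log2 fold change of -0.27 ± 0.14 (adjusted p = 0.440). Rac2 was at 472 ± 19.4 and 483 ± 31.3 CPM (log2 0.035 ± 0.054, adjusted p = 0.843). All are edgeR values with n = 6 in each group, and the groups overlapped for each of these 4 members. The neutrophil list summed to 2526 to 2972 CPM in air and 3810 to 4704 in silica blood at 1 day, with 5 of its 11 tested genes higher, S100a8 and S100a9 among them. Whether the neutrophil share of blood moved the subunits was not tested.

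**Figure D2:**
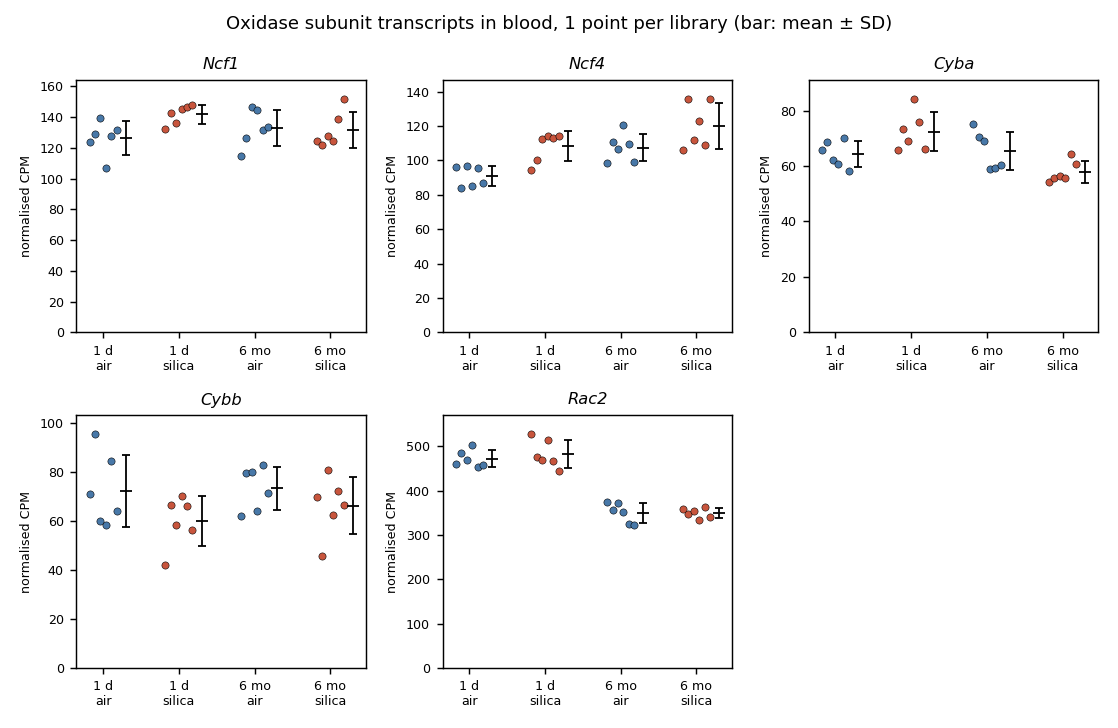
Normalised CPM (y axis, linear from 0) of the 5 members measured in blood in the 4 blood groups, with 1 point per library and the mean ± SD beside each group. Air and silica groups overlapped for all 5 at both times. Levels of the 2 times were scaled separately.

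In blood 6 months after exposure 0 of the 5 tested members passed, and edgeR called 0.0086% of 11629 genes. Groups did not overlap for 0 members and for 0.378% of all genes. At an unadjusted p under 0.05 there were 2 (Cyba and Ncf4), beside 8.7% of all genes, and DESeq2 and limma-voom called 0. Cyba was at 58.9, 64.6 and 75.0 CPM in air and at 54.3, 56.1 and 64.2 CPM in silica blood, where 4 of 6 silica libraries were below all air libraries. Its log2 fold change was -0.18 ± 0.070 (edgeR adjusted p = 0.539). Ncf4 was at 108 ± 8.13 and 120 ± 13.3 CPM (log2 0.16 ± 0.074, adjusted p = 0.563). Ncf1, at 133 ± 11.8 and 132 ± 11.7 CPM, and Rac2, at 350 ± 22.0 and 350 ± 11.4 CPM, had log2 fold changes of -0.015 ± 0.071 and -0.0014 ± 0.054, each smaller than its SE. Cybb was at 73.3 ± 8.78 and 66.2 ± 11.7 CPM (log2 -0.15 ± 0.11, adjusted p = 0.706). Noxo1 and Nox4 had 0 counts in all 12 libraries. The neutrophil list overlapped between the groups at 6 months, and 0 of its 12 tested genes rose or fell.

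The effects in the 2 tissues were compared directly. At 1 day the silica effect on Ncf1 was higher in blood than in lung by 0.63 ± 0.11 on the log2 scale (edgeR interaction test, adjusted p = 0.000883), where 4.03% of 15989 genes were called. The other 4 members with a value in both tissues did not pass. At 6 months the effect was lower in blood than in lung by -0.72 ± 0.093 for Cyba (adjusted p = 0.0001) and by -0.55 ± 0.10 for Ncf1 (adjusted p = 0.00395), where 3.53% of 15790 genes were called. For Cybb, Ncf4 and Rac2 the tissue difference at 6 months did not pass the test (adjusted p of 0.234, 0.512 and 0.171). In blood, the effects at 6 months and 1 day differed past the threshold for 0 of the 5 members by edgeR, as for 0 of 12444 genes. Cyba had the smallest p of the 5, with a difference of -0.35 ± 0.097 (adjusted p = 0.165, unadjusted p = 0.00147).

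**Figure D3:**
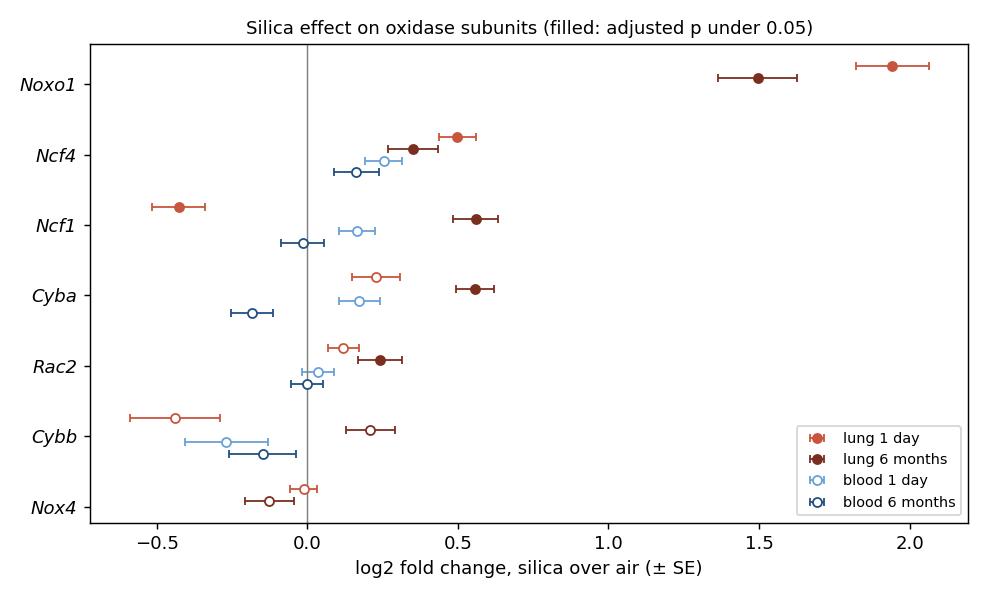
Log2 fold change, silica over air (x axis), ± SE for each member in the 4 comparisons, with filled points where the edgeR adjusted p was under 0.05. Noxo1 stood at 1.94 and 1.49 in lung, and Ncf1 was at -0.43 in lung at 1 day and at 0.56 at 6 months.

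Ratios of 2 subunits within a library do not depend on library size. In all, 14 such comparisons were made with two-sided exact permutation tests, adjusted over the 14. Noxo1 and Ncf1 are organizers of different enzymes and not partners in 1 complex. With 6 libraries a group, or 5 and 6 in lung at 6 months, the smallest p they can give was 0.00216. The log2 ratio of the catalytic chain to its partner, Cybb to Cyba, was 0.47 ± 0.35 in air and -0.19 ± 0.28 in silica lungs at 1 day (SD). The difference of -0.65 had an exact permutation p of 0.0130 (adjusted p = 0.0260), and the groups overlapped. At 6 months the ratio was 0.70 ± 0.11 in air and 0.36 ± 0.088 in silica lungs, a difference of -0.34 without overlap (exact permutation p = 0.00216, adjusted p = 0.00606). In blood at 1 day it was 0.14 ± 0.20 in air and -0.29 ± 0.18 in silica libraries, a difference of -0.43 also without overlap (exact permutation p = 0.00216, adjusted p = 0.00606). In blood at 6 months the difference was 0.016 (exact permutation p = 0.920). Relative to Cyba, Cybb was thus lower after silica in 3 of the 4 comparisons. How often other pairs of genes differ in this way was not computed, so the count does not set this pair apart. Neither gene alone passed the test at 1 day in lung or in blood, while in lung at 6 months Cyba alone had risen.

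The ratio of Ncf4 to Ncf1 followed the turn of Ncf1 in lung. Its log2 value was -1.48 ± 0.24 in air and -0.58 ± 0.22 in silica lungs at 1 day, higher by 0.90 with no overlap (exact permutation adjusted p = 0.00606). Every silica lung was above every air lung for Ncf4 and below every air lung for Ncf1. The single genes thus fixed the outcome of this test at 1 day, and it adds no support of its own. At 6 months the ratio was -1.26 ± 0.076 in air and -1.47 ± 0.091 in silica lungs, a difference of -0.21 with overlap (exact permutation adjusted p = 0.0152). In blood the differences of 0.082 and 0.17 did not pass (exact permutation adjusted p of 0.281 and 0.114). Noxo1 to Ncf1, the ratio of the 2 organizers, was computed in lung only. It went from -1.86 ± 0.15 in air to 0.48 ± 0.30 in silica lungs at 1 day, a difference of 2.34, and from -1.53 ± 0.25 to -0.59 ± 0.10 at 6 months, a difference of 0.94. Neither pair of groups overlapped (exact permutation adjusted p = 0.00606 each). At 1 day this outcome too was fixed by the single genes, with Noxo1 higher and Ncf1 lower in every silica lung. Rac2 to Cybb did not pass in any comparison of all libraries, with differences of 0.54 and 0.028 in lung and 0.30 and 0.16 in blood at 1 day and 6 months (exact permutation adjusted p of 0.0530, 0.755, 0.170 and 0.341). It did pass in lung at 1 day without air library 39 or silica library 45 (exact permutation adjusted p down to 0.00866), and Ncf4 to Ncf1 in blood at 6 months passed without silica library 62 (exact permutation adjusted p = 0.0227).

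**Figure D4:**
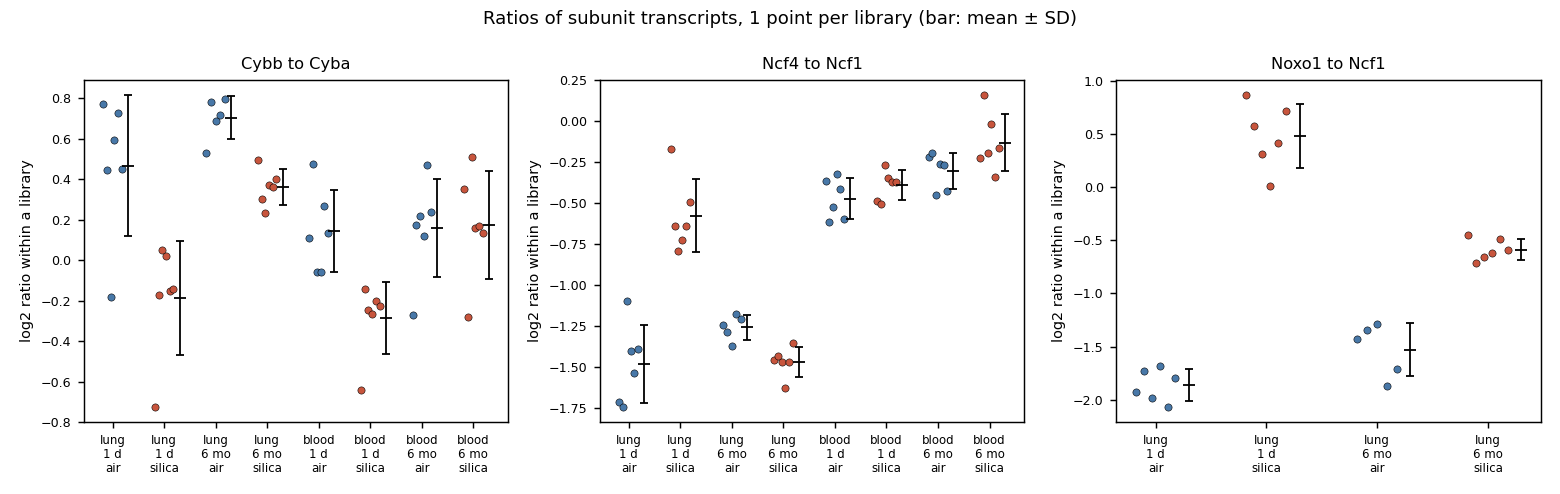
Log2 ratio within a library (y axis) of Cybb to Cyba and Ncf4 to Ncf1 in the 8 groups and of Noxo1 to Ncf1 in the 4 lung groups, with 1 point per library and the mean ± SD. Cybb to Cyba was lower in silica libraries in lung at both times and in blood at 1 day, and Noxo1 to Ncf1 was highest in silica lungs at 1 day.

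Of 12 other oxidase genes, 11 were found by name. In lung at 1 day 1 of the 8 tested rose and 0 fell, P4hb, a protein disulfide isomerase (log2 0.18 ± 0.041, edgeR adjusted p = 0.0078), where 8.39% of all genes rose. The median log2 fold change of the 8 was 0.022. At 6 months 2 of 7 tested rose and 0 fell, where 9.84% of all genes rose, with a median of 0.10. These were P4hb (log2 0.22 ± 0.038, edgeR adjusted p = 0.00222) and Duox1, a dual oxidase of airway epithelium (log2 0.69 ± 0.21, edgeR adjusted p = 0.0422). The Duox1 call was lost without any 1 of 7 of the 11 libraries (air 49, 51, 52 and 53, silica 58, 59 and 60), with adjusted p up to 0.0995, and by limma-voom (adjusted p = 0.0794). Nox1, the catalytic partner of the Noxo1 protein, did not pass the filter on low counts in lung. It had 0 to 1 counts in air and 1 to 12 counts in silica lungs at 1 day, and 0 to 3 and 0 to 6 counts at 6 months. Nox1 is named after its values were seen. In blood 0 of 4 tested passed at either time by edgeR, with 0 at an unadjusted p under 0.05, beside 12.9% and 8.7% of all genes.

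Of 10 genes of oxidase activation, 4 rose in lung at 1 day and 0 fell, beside 8.39% and 5.72% of all genes, with a median log2 fold change of 0.15. Itgam and Fcgr1a, a complement receptor chain and an antibody receptor through which phagocytes are stimulated, had log2 fold changes of 0.57 ± 0.082 and 0.49 ± 0.066. Pik3cg (0.17 ± 0.038), a lipid kinase, and Vav1 (0.24 ± 0.062), an exchange factor for Rac proteins, were the others. At 6 months 4 rose and 0 fell, beside 9.84% and 6.38% of all genes, with a median of 0.18: Itgam (0.66 ± 0.14), its partner chain Itgb2 (0.46 ± 0.077), the proton channel gene Hvcn1 (0.56 ± 0.055) and Vav1 (0.40 ± 0.052). edgeR adjusted p-values of the 8 calls were 6.57e-05 to 0.0186. In blood 0 of 10 passed at either time by edgeR, with 1 and 0 at an unadjusted p under 0.05, beside 12.9% and 8.7% of all genes.

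Of 18 genes that handle superoxide and peroxide, 16 were tested in lung. At 1 day 4 rose and 5 fell, beside 8.39% and 5.72% of all genes, and the median log2 fold change was -0.027. Of the calls lower, that of Gpx1 was lost without silica library 48 (adjusted p = 0.0564), and that of Prdx6 without any 1 of 7 of the 12 libraries (air 39 and 40, silica 43, 44, 46, 47 and 48) and with no filter on low counts, with adjusted p up to 0.0855. Sod2, the mitochondrial superoxide dismutase, rose from 153 ± 16.7 to 405 ± 48.3 CPM (2.65-fold, edgeR adjusted p = 3.85e-07). The extracellular dismutase Sod3 and the plasma peroxidase Gpx3 fell by 0.29 ± 0.051 and 0.23 ± 0.040. Txnrd1, a thioredoxin reductase, rose by 0.27 ± 0.039 and Gpx2 by 0.26 ± 0.050. At 6 months 5 rose and 1 fell, beside 9.84% and 6.38% of all genes, with a median of 0.13. Sod2 rose by 1.04 ± 0.078, Prdx5, a peroxiredoxin, by 0.63 ± 0.083, Txnrd1 by 0.32 ± 0.053 and Prdx1 by 0.30 ± 0.052. Prdx6 fell by 0.14 ± 0.041, a call lost without any 1 of 8 of the 11 libraries (air 49, 51, 52 and 53, silica 58, 60, 62 and 64) and with no filter on low counts, with adjusted p up to 0.0862. Lpo, a secreted peroxidase that uses hydrogen peroxide, was at 0.281 ± 0.441 in air and 1.60 ± 0.751 CPM in silica lungs at 1 day, and at 2.08 ± 4.08 and 37.6 ± 13.2 CPM at 6 months. Its log2 fold changes were 2.42 ± 0.60 and 4.20 ± 0.69 (edgeR adjusted p of 0.0136 and 0.00165), and the call at 1 day was lost with all 4 lung groups in 1 model (adjusted p = 0.101). Single air libraries set the size of both: without air library 38 the value at 1 day was 3.63, and without air library 54 that at 6 months was 7.07, while air lungs at 6 months had a median of 0.0826 and a highest level of 9.36 CPM. Other settings gave 2.40 to 3.09 at 1 day and 4.17 to 6.41 at 6 months. In blood 0 of 13 tested passed at either time by edgeR, with 3 and 2 at an unadjusted p under 0.05, beside 12.9% and 8.7% of all genes.

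For each member called in lung, the 3 genes with the most similar profile were sought among 13016 genes, by the root mean square distance of log2 levels over the 23 lung libraries after the mean of the air libraries of each table was subtracted. For Noxo1 they were Cd177 (0.155), C3 (0.240) and Chi3l1 (0.296), where the median distance to all genes was 1.28. The log2 fold changes of C3 were 1.69 at 1 day and 1.19 at 6 months. For Ncf1 they were Ctsd (0.104), Abcg1 (0.134) and Smpdl3a (0.136), against a median of 0.412, and Ctsd had log2 fold changes of -0.39 and 0.51. The choice by distance fixes that such genes share the signs of the member. For Cyba they were Napsa (0.0820), Ifi30 (0.0824) and Grn (0.0871), with a median of 0.362. For Ncf4 they were Sbno2 (0.0949), Tmem154 (0.107) and Pstpip1 (0.108), with a median of 0.360. For Rac2 they were Hcls1 (0.0678), Ttc7a (0.0805) and Pfn1 (0.0826), with a median of 0.227. Such distances describe these libraries and carry no test.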

How the data were processed

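RNA of lung and globin-depleted whole blood was sequenced from stranded, polyadenylated libraries, per the labels' protocols. The authors deposited 4 tables of expected counts by gene, which are estimates and may be fractional. The tools listed in the submitters' processing notes, without role or order, were Salmon 1.10.1, STAR 2.6.1d, Trim Galore 0.6.7, cutadapt 3.4 and bcl2fastq 2.19, with the build Rnor_6.0. Counts were rounded here and tested over all genes of a table by the quasi-likelihood test of edgeR 4.0.16 (R 4.3.3), with TMM scaling, a minimum count of 10 in filterByExpr and a threshold of 0.05 on Benjamini-Hochberg adjusted p. Time and tissue differences were interactions over 4 groups. Within-library ratios used a pseudocount of 0.5 CPM and exact permutation tests. The floor of 3 counts covers counting error only, and SDs and SEs rest on the spread among libraries.

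Groups follow the labelled tissue, time and treatment. No 2 libraries of a group agreed within sampling noise (chi-square per degree of freedom 3.76 to 35.3). Chambers and cages are not labelled, and rats were housed in pairs, so p-values rest on the spread among single animals, and treatment and chamber cannot be told apart. Lung and blood titles share animal numbers, taken as the same animal. After group means were subtracted, same-numbered libraries correlated from -0.0887 to 0.148 over 12 animals at 1 day and from -0.071 to 0.0829 over 9 at 6 months.

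The members and lists were chosen with earlier results of these data known. Named by rule were the 7 members, up to 6 called genes of each list with the smallest p, and the 3 most similar genes of each member called in lung. Named outside that rule were Nox1, single marker genes, and Gpx1 and Prdx6 in lung at 1 day, whose calls were lost in other fits. A gene that the rule also names is not reported here and was left out of the lists. DESeq2 1.42.0 and limma-voom (limma 3.58.1) served as alternative tests. Altered edgeR settings were 1 model over all 4 groups of a tissue, scaling by RLE, and filtering at 50 counts or not at all. Ratios were repeated with pseudocounts of 0.1 and 2, and tissue differences with the animal as a block. Each library was also left out in turn. Whether removal of globin, erythroid or mitochondrial genes would alter the results was not tested. A fit of blood at 1 day without air libraries 37 and 40, which stood apart, was chosen after seeing the data. It called no member, as with all libraries. The fits of silica against air by edgeR, limma-voom and DESeq2 were checked on data simulated for lung and blood at 1 day. That simulation used a single dispersion and 2-fold changes. The interaction tests, the permutation tests and the fit with the animal as a block were not checked in this way.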

Additional observations from a re-analysis of the deposited data

Results flagged for a closer look

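Among 48 sets examined, each the values of 1 member in 1 group of libraries, 3 held 1 library far from the others. Chance alone gives about 1 in 20, but the sets share libraries and are not independent. Cyba in air lung at 1 day was at 93.6 normalised CPM in library 38, and the next library was at 70.6. Ncf1 in silica lung at 1 day was at 47.8 CPM in library 43, and the next was at 55.4. Cybb in silica lung at 6 months was at 143 CPM in library 58, and the next was at 121.

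The silica effect differed between groups by an edgeR interaction test in 4 cases. For Ncf1 the log2 fold change in lung at 6 months exceeded that at 1 day by 0.99, and at 1 day the effect in blood exceeded that in lung by 0.63. At 6 months the effect in blood minus that in lung was -0.55 for Ncf1 and -0.72 for Cyba.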

How the results depend on the processing

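Noxo1, Ncf4 and Ncf1 in lung at both times, and Cyba at 6 months, kept their direction and their call under every alternative run and without any single library. With all 4 lung groups in 1 model, 2 members were lower at 1 day, since Cybb passed (-0.45, adjusted p = 0.0201); Cyba passed at 1 day there and by DESeq2 (adjusted p = 0.0407). In blood at 1 day DESeq2 called 360 genes, and 1 member was higher by DESeq2 and with a minimum count of 50 (Ncf4, adjusted p of 0.00807 and 0.0494). In blood at 6 months DESeq2 called 2 genes, and the log2 fold change of Rac2 turned positive by limma-voom (0.0030), DESeq2 (0.00063), RLE factors (0.0015) and with all 4 groups (0.0080). The cause was not tested.

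With the animal as a replicate block, 415 genes differed between the tissues at 1 day (645 without it) and 202 at 6 months (557 without it, over fewer animals). The block changed no other call of a member: Ncf1 stood at 0.63 at 1 day, and Cyba at -0.81 and Ncf1 at -0.63 at 6 months.

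Without single libraries, members higher in lung at 1 day numbered 2 to 4 and members lower 1 to 2. Genes called in blood numbered 86 to 211 at 1 day (168 with all libraries, and 86 to 95 without air 37, 38, 41 or 42 or silica 45, 46 or 48) and 0 to 1 at 6 months, with 0 to 1 member higher at 1 day. Members with a higher effect at 6 months in lung numbered 1 to 2, and genes that differed between tissues at 6 months 332 (without air lung 53) to 609. Cybb to Cyba in blood at 6 months ran from -0.069 to 0.11, Ncf4 to Ncf1 there from 0.11 to 0.21, and Rac2 to Cybb in lung from 0.46 to 0.69 at 1 day and from -0.011 to 0.079 at 6 months. Signs turned for Nox4 in lung at 1 day (-0.039 to 0.016) and for Ncf1 (-0.058 to 0.015) and Rac2 (-0.023 to 0.017) in blood at 6 months. Noxo1 and Nox4 had too few counts in blood for any fold.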
